A study of Mus musculus with 28 samples.

Results

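The genes of cytosolic translation, ribosomal proteins and translation factors, were described across 28 single neurons of the mouse primary motor cortex (M1). They were chosen by a rule on gene names, with earlier results of these data known. It took Rpl or Rps followed by a digit, Rplp0 to Rplp2, Rpsa, and all names starting with Eif or Eef. The Rps6k kinases and the Y-linked Eif2s3y were left out. The rule found 35 genes among the 1024 of the deposited table. They comprised 12 proteins of the large (60S) and 8 of the small (40S) ribosomal subunit, 9 initiation factors, 2 elongation factors and 4 further factors (Eif1ad, Eif2d, Eif4g2 and Eif6). Most ribosomal proteins of the mouse are thus not among the members, and the table is described as holding the genes above a cut-off whose definition was not stated.

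The study concerns a mouse model of fetal alcohol spectrum disorders. CD1 embryos were electroporated in utero on embryonic day 15 with pHSE-FLPo (a recombinase driven by a heat shock response element), pFRT-RFP (a red reporter that the recombinase turns on) and pCAGIG (GFP, which marks each cell that took up DNA). Their dams were injected intraperitoneally on embryonic days 16 and 17 with 25% ethanol (EtOH), in a dose of 1.0 or 4.0 g per kg, or with PBS, and cell contents were aspirated from single GFP-positive neurons at postnatal day 30. The 3 groups were RFP-positive EtOH (15 neurons, ethanol-exposed, reporter on), RFP-negative EtOH (7 neurons, ethanol-exposed, reporter off) and RFP-negative PBS (6 neurons, PBS, reporter off). The dose given to the dam of a particular neuron is not among the labels. All 3 groups carry the same plasmids, and the reporter can be read only in electroporated cells. The labels name no animal, so neurons may share a mouse. Each group was therefore treated as 1 sample: spreads are SD over neurons, and no p-value is given for any difference.

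A ribosome consists of a small subunit, which reads the mRNA, and a large subunit, which joins the amino acids, and each holds rRNA and many proteins. Initiation factors bring the initiator tRNA and the mRNA to the small subunit, and elongation factors deliver each further tRNA and move the ribosome along. Phosphorylation of the alpha subunit of eIF2, encoded by Eif2s1, lowers initiation in the integrated stress response. Most ribosomal protein mRNAs of mammals begin with a pyrimidine tract that couples their translation to growth signals.

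The deposited values are logarithms, read here as log2 because the base is not stated, and 1 unit is then a 2-fold change. They ranged from 1.00 to 13.2, with a main mode between 1.75 and 2.0 and a trough between 4.0 and 4.25. Above this trough lay a mode between 5.75 and 6.0 and another between 9.5 and 9.75. A further trough, between 8.0 and 8.25, parted them. A value over 4 is called an upper value here, and it can belong to either upper mode. A lower value does not show that the transcript was missing, and the read depth per neuron is unknown. RFP-positive EtOH neurons had 273 to 434 upper values over the whole table (median 357), RFP-negative EtOH neurons 274 to 366 (median 327) and RFP-negative PBS neurons 286 to 412 (median 323.5). By exactly equal values within genes, 4 neurons stood apart from the other 24: RFP-positive EtOH neurons 1 and 2, RFP-negative EtOH neuron 1 and RFP-negative PBS neuron 6. These 4 had 16 to 22 members at an upper value and 35.3% to 42.3% of the other genes, whereas the 24 had 5 to 17 members and 26.2% to 41.3% of the other genes. What sets these neurons apart was not stated, and results are also given for the set of 24. Of the neuron markers, Nrgn was at an upper value in 15 of 15 RFP-positive EtOH, 7 of 7 RFP-negative EtOH and 5 of 6 RFP-negative PBS neurons, and the interneuron marker Gad1 in 3, 2 and 1 of them.

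The members were patchily detected, with a few genes high in nearly all neurons and most high in a minority. Over all neurons, 352 of 980 member values were upper values (35.9%), 196 of 560 for ribosomal proteins and 156 of 420 for factors, against 33.6% for the genes outside the list. A member had an upper value in 1 to 25 neurons, with a median of 8, which is also the median over all genes. There were 10 of 35 members with upper values in at least 14 neurons and 5 with upper values in at most 4. Over the whole table these were 212 and 172 of 1024 genes, so patchy detection was not particular to the members. The median of the gene means was 3.94 for ribosomal proteins and 3.63 for factors, against 3.62 for all genes. Cufflinks, named in the processing notes, reports expression per transcript length, but whether the deposited values kept that scale is not stated, so levels of different genes are set side by side with that limit.

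**Figure D1:**
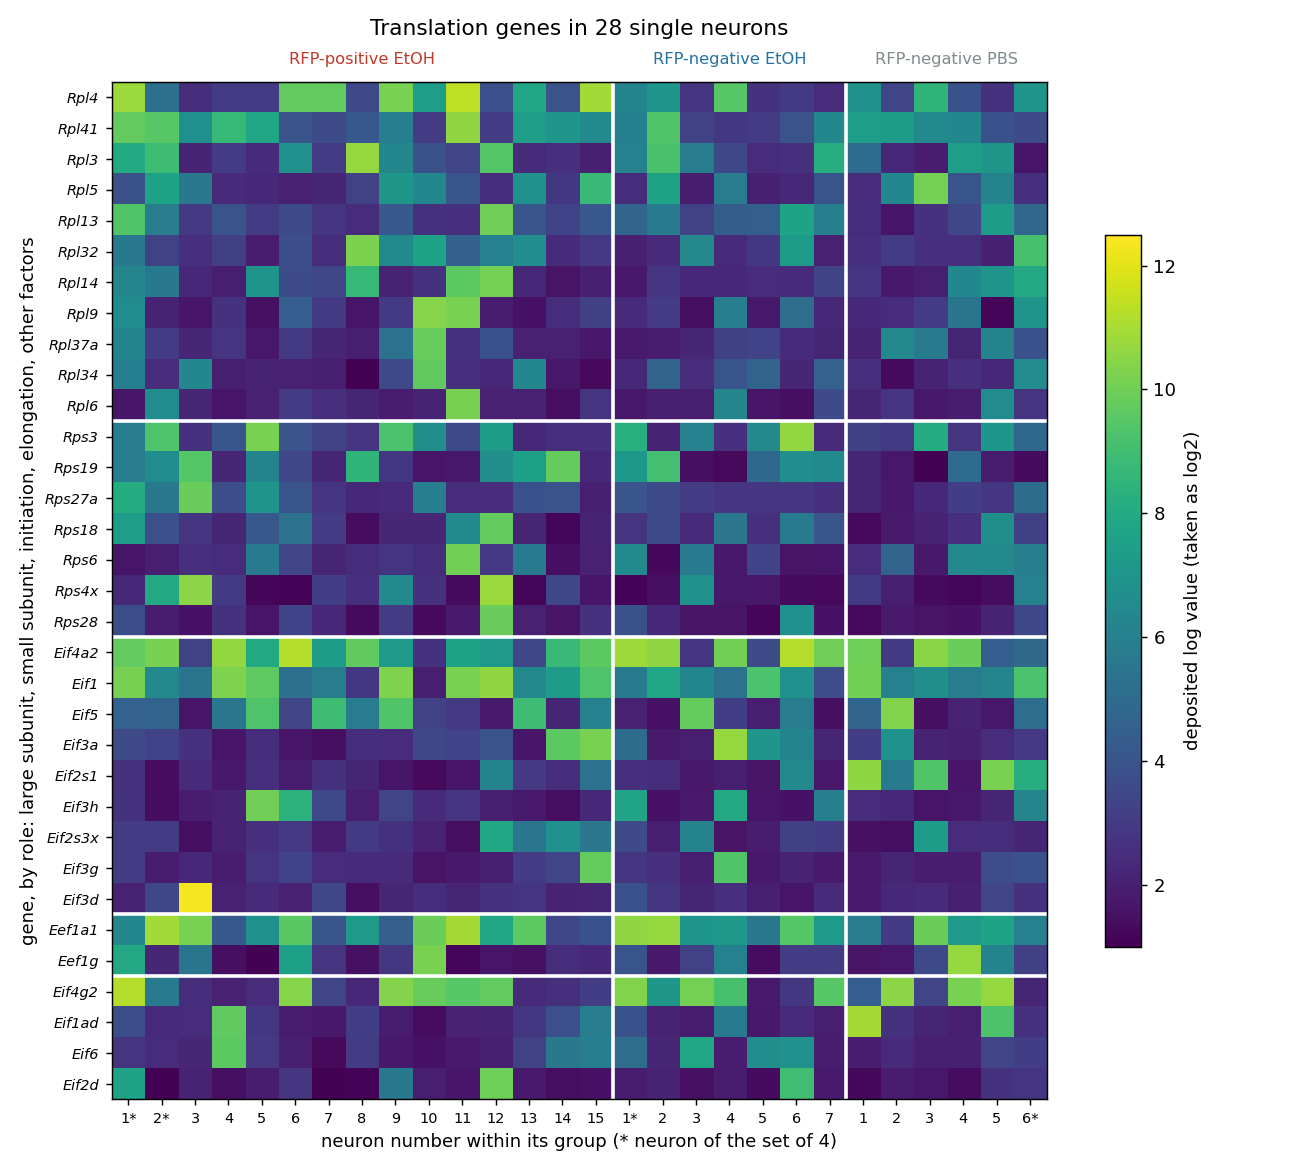
Heat map of the deposited log2 values of 33 of the 35 members (rows, by role) in each of the 28 neurons (columns, by group). Eif4a2, Eif1, Eef1a1, Rpl41 and Rpl4 were high in many neurons, and the row of Eif2s1 was high in 5 of the 6 RFP-negative PBS neurons.

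In the comparisons, 2 members stood out from the rest in both contrasts with PBS: Eif2s1 had a lower mean and Rps19 a higher mean in the ethanol-exposed groups. Rpl4 and Rpl14 had means at least 2 units higher in RFP-positive EtOH than in RFP-negative EtOH neurons. A size of 2 log2 units is used throughout to single out genes. In RFP-positive EtOH minus RFP-negative EtOH, 2 of 35 members were at least 2 units higher (6.25% of all genes were) and 0 were at least 2 units lower (5.08% of all genes). In RFP-negative EtOH minus RFP-negative PBS, 2 were higher, Rps19 and Eif6 (8.11% of all genes), and 3 lower, Eif2s1, Rpl14 and Eif1ad (11.3%). In RFP-positive EtOH minus RFP-negative PBS, 1 was higher, Rps19 (4.3%), and 1 lower, Eif2s1 (5.37%). These shares, 5.71% and 0%, then 5.71% and 8.57%, then 2.86% and 2.86% of the members, are near or below those of all genes. Each of the 3 groups enters 2 of the comparisons, so these are not independent of one another. Within the set of 24, the members at least 2 units higher and lower numbered 1 and 0 in the first of these comparisons (7.13% and 6.35% of all genes), 2 and 3 in the second (8.59% and 14.6%) and 3 and 4 in the third (7.13% and 7.91%). The higher ones there were Rpl4 in the first, Rps19 and Eif6 in the second, and Rps19, Rpl32 (2.15) and Rps4x (2.01) in the third. The lower ones were Eif2s1, Eif1ad (-2.76) and Rpl37a in the second, and those of the third included Eif2s1, Eif4g2 (-2.40) and Eif1ad (-2.20). No member had groups whose neurons did not overlap, in any comparison (0%, 0.488% and 0% of all genes).

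**Figure D2:**
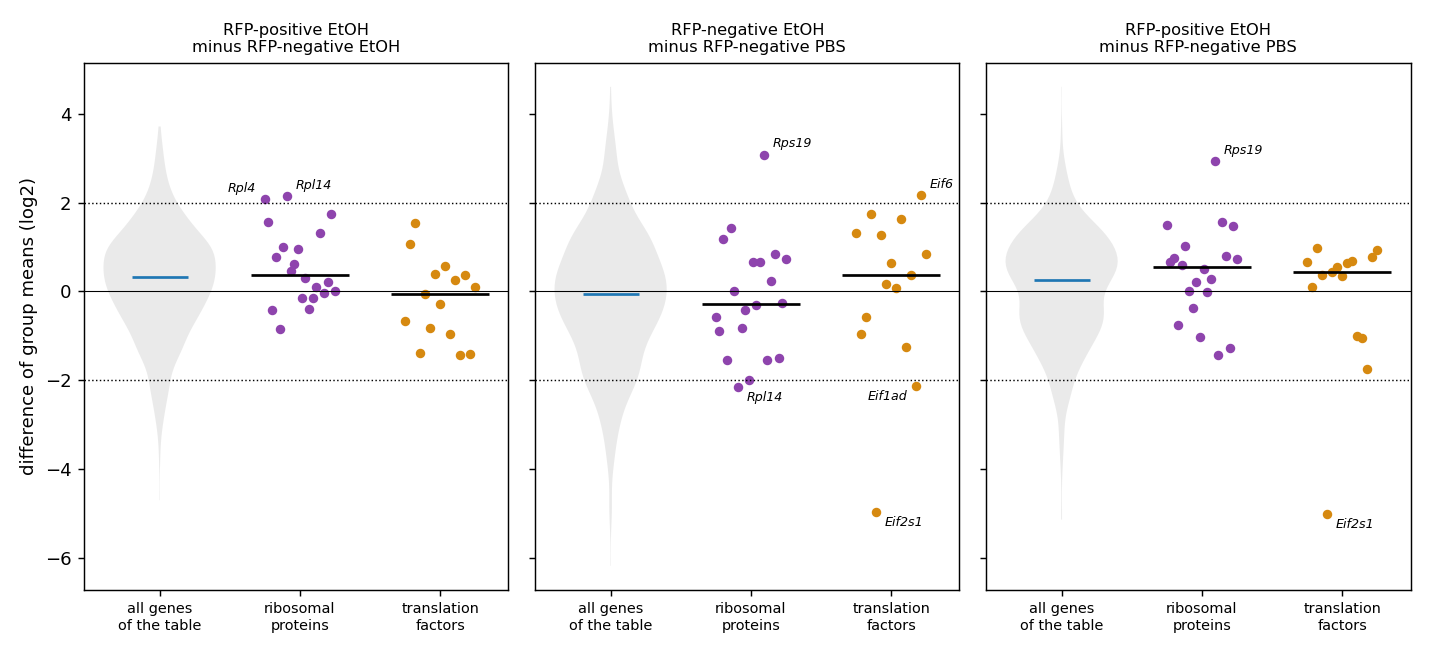
Differences of group means (log2) for all 1024 genes (grey outline, blue line at the median), the 20 ribosomal proteins and the 15 translation factors (points, black line at the median) in the 3 comparisons. Dotted lines mark 2 units; Eif2s1 lies at -4.96 and -5.01 in the comparisons with PBS and Rps19 at 3.08 and 2.93.

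The sequences around the transcription starts are shown because ribosomal protein mRNAs are known for a pyrimidine tract at this point. They are RefSeq windows of 50 bases on GRCm38.p6, 25 on either side of the annotated start, written 5′ to 3′ on the coding strand. Capitals mark a run of at least 8 C or T that begins with C, sought on the coding strand only. Shown are the members past 2 units that could be matched and that sit outside overlaps on the opposite strand, and the abundant Rpl41, Eif1 and Eef1a1.
Rpl4 (chr9:64173362-64173411, plus strand): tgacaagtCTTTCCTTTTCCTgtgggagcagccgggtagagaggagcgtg
Rpl14 (chr9:120571492-120571541, plus strand): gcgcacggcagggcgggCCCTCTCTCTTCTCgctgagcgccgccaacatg
Rpl41 (chr10:128549144-128549193, minus strand): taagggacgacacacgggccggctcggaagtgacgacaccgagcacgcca
Rps19 (chr7:24884567-24884616, plus strand): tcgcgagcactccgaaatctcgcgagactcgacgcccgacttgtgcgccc
Eif2s1 (chr12:78862047-78862096, plus strand): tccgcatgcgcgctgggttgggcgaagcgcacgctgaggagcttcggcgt
Eif1 (chr11:100319924-100319973, plus strand): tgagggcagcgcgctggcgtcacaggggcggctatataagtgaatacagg
Eef1a1 (chr9:78481700-78481749, minus strand): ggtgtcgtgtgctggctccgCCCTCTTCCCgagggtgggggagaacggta

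RefSeq windows were matched for 26 of the 35 members. Such a run was found in 7 of 15 matched ribosomal proteins (46.7%) and in 2 of 11 matched factors (18.2%, Eif2s3x and Eef1a1), against 20.8% of the 793 matched genes of the table and 17.7% of the 27025 genes with a window. The 7 were Rpl4, Rpl5, Rpl13, Rpl14, Rpl34, Rps18 and Rps6. A run on either side of the annotated start was counted, so a counted run need not lie in the mRNA. The run of Rpl4 lies wholly before the start that RefSeq gives. The gene start in GENCODE, 64173375, falls within the run, so whether it lies in the mRNA depends on the annotation. A window without the run, as at Rps19, says only that these letters are not within 25 bases of the start that RefSeq gives. The median of the gene means was 4.08 for the ribosomal proteins with the run (3.35 to 6.04) and 3.47 for those without (2.56 to 5.99), and the ranges overlapped. The median differences with and without the run were 0.21 and 0.46 in RFP-positive EtOH minus RFP-negative EtOH, -0.58 and -0.28 in RFP-negative EtOH minus PBS, and 0.50 and 0.47 in RFP-positive EtOH minus PBS.

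Among proteins of the large subunit, Rpl4, whose protein reaches into the exit tunnel for the new peptide, had the highest mean. Its gene lies at chr9:64173375-64178666 on the plus strand of GRCm38. Its values in RFP-positive EtOH neurons were 2.51 at the lowest, 7.39 at the median and 11.42 at the highest, against 2.44, 2.95 and 9.50 in RFP-negative EtOH neurons and 2.65, 5.39 and 8.51 in RFP-negative PBS neurons. Upper values were seen in 9 of 15, 3 of 7 and 3 of 6 neurons, so the groups overlapped over most of their range. The difference of 2.08 between the RFP-positive and RFP-negative EtOH means (6.88 ± 3.39 and 4.80 ± 2.79, SD, n = 15 and 7) was smaller than the SD over RFP-positive neurons. It came to under 2 when any of 10 neurons was left out: 1.76 to 1.88 without RFP-positive EtOH neuron 1, 6, 7, 9, 11 or 15, and 1.69 to 1.77 without RFP-negative EtOH neuron 3, 5, 6 or 7. It was 1.57 with the neurons scaled to 1 upper quartile and 1.91 with their medians centred.

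Rpl14, at chr9:120571444-120574654 on the plus strand, was at lower values throughout the RFP-negative EtOH group. The RFP-positive EtOH neurons had 1.61, 3.43 and 10.11 as lowest, median and highest value, RFP-negative EtOH neurons 1.81, 2.36 and 3.38, and RFP-negative PBS neurons 1.80, 4.54 and 7.94. Upper values were seen in 6 of 15 RFP-positive EtOH neurons, 0 of 7 RFP-negative EtOH neurons and 3 of 6 PBS neurons. A count of 0 of 7, given a limit of 3 neurons, allows a share of up to 42.9% (exact interval up to 41.0%), for counting error alone. The difference was 2.15 for RFP-positive EtOH minus RFP-negative EtOH (1.83 within the set of 24, and 1.76 to 1.98 without RFP-positive EtOH neuron 5, 8, 11 or 12) and -2.14 for RFP-negative EtOH minus PBS (-1.37 within the set of 24, and -1.80 to -1.48 without PBS neuron 4, 5 or 6). With group medians in place of means, the first of these differences was 1.07. Upper quartile scaling gave 1.64 and -1.59, and median centring gave 1.97 for the first. Rpl37a showed a like distribution just under 2 units, with 3 of 15, 0 of 7 and 3 of 6 upper values and a difference of -1.99 between RFP-negative EtOH and PBS neurons.

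Rpl41, which encodes a very short peptide of the large subunit, was at an upper value in 11 of 15, 3 of 7 and 4 of 6 neurons, with means of 6.52 ± 2.52, 4.97 ± 2.39 and 5.86 ± 1.68. Its values were 2.98, 6.79 and 10.60 in RFP-positive EtOH, 2.88, 3.95 and 9.38 in RFP-negative EtOH and 3.63, 6.43 and 7.46 in PBS neurons (lowest, median and highest), and the difference between the EtOH groups was 1.55. Of the other large subunit genes, Rpl13 was at an upper value in 6 of 15 RFP-positive EtOH neurons, 6 of 7 RFP-negative EtOH neurons and 2 of 6 PBS neurons. Rpl5, which carries the 5S rRNA, averaged 4.52 ± 2.30, 3.74 ± 2.24 and 5.28 ± 2.90. Exons of Rpl5 overlap another gene by up to 953 of their 3920 bases, so reads of that gene may be included. The remaining genes of the subunit, among them Rpl3, Rpl6, Rpl9, Rpl32 and Rpl34, had no difference of 2 units over all neurons. Rpl3 and Rpl32 were the higher ones among these, with upper values in 13 and 10 of the 28 neurons, and Rpl6 was the lowest with 4. The median difference over the 12 genes was 0.70 for RFP-positive EtOH minus RFP-negative EtOH (all genes 0.31), -0.50 for RFP-negative EtOH minus PBS (all genes -0.06) and 0.35 for RFP-positive EtOH minus PBS (all genes 0.26).

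In the small subunit, Rps19 differed most. It encodes a protein of the head of the subunit that is needed to mature its rRNA, and mutations of the human gene cause Diamond-Blackfan anaemia. The gene lies at chr7:24884371-24889806 on the plus strand. Its values were 1.67, 5.87 and 9.77 in RFP-positive EtOH neurons and 1.30, 6.50 and 9.08 in RFP-negative EtOH neurons (lowest, median and highest). In the 6 RFP-negative PBS neurons they were 2.23, 1.74, 1.05, 5.03, 1.88 and 1.33. The PBS values were thus low in all but neuron 4, while both ethanol groups spread over high and low values and overlapped the PBS range.

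Upper values of Rps19 were found in 8 of 15 RFP-positive EtOH neurons (95% exact binomial interval 26.6% to 78.7%), 5 of 7 RFP-negative EtOH neurons (29.0% to 96.3%) and 1 of 6 PBS neurons (0.421% to 64.1%). The intervals overlap, and counting error is all that they cover. The means were 5.14 ± 2.93, 5.29 ± 2.93 and 2.21 ± 1.44. The differences from PBS were 2.93 for RFP-positive EtOH (6th highest of the table) and 3.08 for RFP-negative EtOH (20th highest), both 2.59 within the set of 24, whereas the ethanol groups differed from each other by -0.15. GENCODE names 14 pseudogenes after Rps19, the most for any member, and how reads matching several places were assigned is not stated, so reads of such copies may be included. The limit is not particular to Rps19: 16 members have such pseudogenes, 60 in all, among them Rpl9 (9), Rpl13 (6) and Rps18 (3).

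The 7 other small subunit genes had no difference of 2 units over all neurons. Rps3, which lies at the mRNA entry channel, had 2.28, 3.95 and 10.19 in RFP-positive EtOH, 2.14, 6.05 and 10.65 in RFP-negative EtOH and 2.76, 4.01 and 8.10 in PBS neurons (lowest, median and highest). It averaged 5.08 ± 2.80, 5.48 ± 3.28 and 4.81 ± 2.28 with 7 of 15, 4 of 7 and 3 of 6 upper values, and its largest difference between groups was 0.67 (RFP-negative EtOH minus PBS). Rps4x, on the X chromosome, averaged 3.95 ± 3.33, 2.21 ± 2.06 and 2.47 ± 1.87, and Rps27a, made as a fusion with ubiquitin, averaged 4.42 ± 2.39, 3.10 ± 0.51 and 2.87 ± 1.17. Rps6, the substrate of the S6 kinases, was at an upper value in 3 of 15, 2 of 7 and 4 of 6 neurons. Rps18 averaged 3.75, 3.79 and 2.96. Rps28 had the lowest mean of the members, 2.56, and was at an upper value in 2 of 28 neurons.

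Eif2s1 had the largest difference of all members. Its gene lies at chr12:78861819-78887010 on the plus strand, its exons overlap no other annotated gene, and no annotated pseudogene is named after it. Its values were 1.28, 2.40 and 6.13 (lowest, median and highest) in RFP-positive EtOH neurons and 1.61, 1.97 and 6.41 in RFP-negative EtOH neurons. In the 6 RFP-negative PBS neurons they were 10.53, 5.71, 9.36, 1.71, 10.21 and 8.18. Most ethanol-exposed neurons of either reporter state were thus below 3, and 5 of the 6 PBS neurons were above 5, with PBS neuron 4 at the ethanol level.

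Upper values of Eif2s1 were seen in 2 of 15 RFP-positive EtOH neurons (13.3%, interval 1.66% to 40.5%), 1 of 7 RFP-negative EtOH neurons (14.3%, 0.361% to 57.9%) and 5 of 6 PBS neurons (83.3%, 35.9% to 99.6%). The counts were the same with limits of 3 and 5 in place of 4, whereas for Rps19 they were 9, 5 and 1 with a limit of 3 and 8, 4 and 1 with a limit of 5. The means were 2.60 ± 1.37, 2.65 ± 1.70 and 7.61 ± 3.38. The differences from PBS were -5.01 for RFP-positive EtOH (2nd lowest of the 1024 genes) and -4.96 for RFP-negative EtOH (4th lowest), and -4.81 and -4.84 within the set of 24. Leaving out each neuron in turn gave -6.19 to -4.43 and -6.14 to -4.38. The reporter states differed by -0.05. Eif2s3x, the other eIF2 subunit among the members, had differences of 0.38, 0.17 and 0.55 in the 3 comparisons, with 4 of 15, 1 of 7 and 1 of 6 upper values. The Y-linked Eif2s3y, which was left out of the members, had differences of 0.73, -0.93 and -0.20.

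The astrocyte markers and the oligodendrocyte marker Mbp had lower medians in both ethanol groups than in PBS neurons, in the same comparisons that single out Eif2s1 and Rps19. The summed astrocyte markers Slc1a2 and Aldoc (2 of 6 listed genes) had log2 sums of 2.72 to 10.2 in RFP-positive EtOH, 2.56 to 9.03 in RFP-negative EtOH and 3.07 to 9.79 in PBS neurons, with medians of 6.18, 3.42 and 8.39. Mbp had highest values of 8.48, 8.26 and 10.6 in the 3 groups, with medians of 3.01, 2.66 and 7.99 and upper values in 4 of 15, 1 of 7 and 4 of 6 neurons. The microglial markers Csf1r and Cst3 (2 of 5) had medians of 5.91, 6.61 and 4.25. Their part in the results was not tested. The time course label of the PBS neurons mentions ethanol, while their titles and exposure labels give PBS, and the comparisons with PBS follow the titles.

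**Figure D3:**
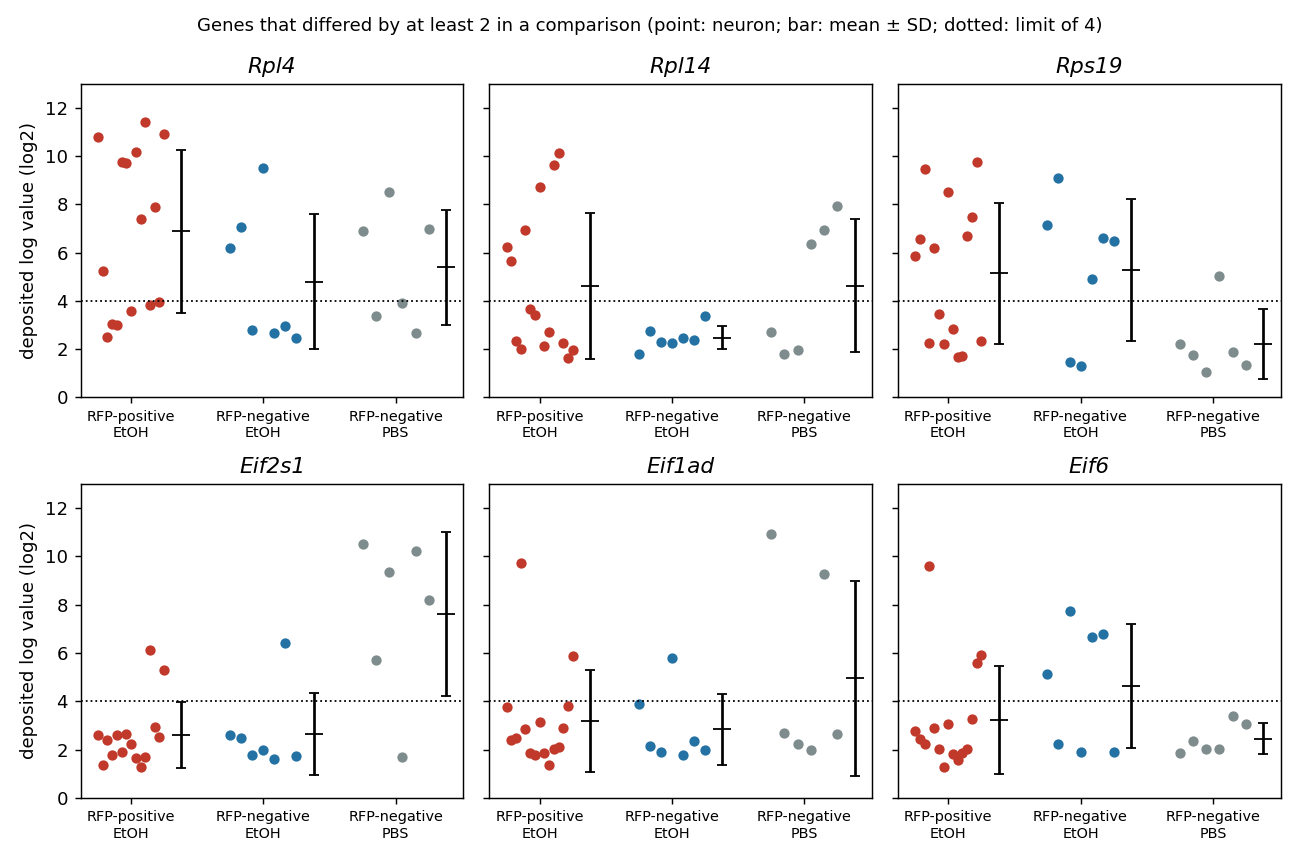
Deposited log2 values of the 6 members that differed by at least 2 units in a comparison, in each neuron (points) of the 3 groups, with mean and SD (bars) and the limit of 4 (dotted). Eif2s1 is high in 5 of 6 PBS neurons, Rps19 is low in 5 of 6, and the neurons of the groups overlap for each gene.

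Eif4a2, an RNA helicase of the cap-binding complex that is prominent in neurons, and Eif1, which helps to choose the start codon, were the highest initiation factors. Eif4a2 had 2.68, 7.98 and 11.21 in RFP-positive EtOH, 2.75, 10.06 and 11.22 in RFP-negative EtOH and 2.95, 7.43 and 10.45 in PBS neurons (lowest, median and highest). It averaged 7.77 ± 2.72, 8.43 ± 3.62 and 7.11 ± 3.35 in RFP-positive EtOH, RFP-negative EtOH and PBS neurons, and was at an upper value in 12 of 15, 5 of 7 and 5 of 6. Eif1 had 1.96, 7.34 and 10.60 in RFP-positive EtOH, 3.70, 6.29 and 9.24 in RFP-negative EtOH and 5.88, 6.45 and 10.04 in PBS neurons. It averaged 7.46 ± 2.85, 6.40 ± 1.78 and 7.36 ± 1.81, with 13 of 15, 6 of 7 and 6 of 6. For both genes the groups overlapped widely, with differences in the order of the comparisons above of -0.66, 1.32 and 0.66 for Eif4a2 and 1.07, -0.96 and 0.11 for Eif1. Eif5, which promotes GTP hydrolysis by eIF2, was at an upper value in 9 of 15, 2 of 7 and 3 of 6 neurons, with a difference of 1.55 between RFP-positive and RFP-negative EtOH means.

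The 4 measured subunits of eIF3, the scaffold that holds the small subunit in initiation, were high in few neurons. Eif3a was at an upper value in 2 of 15, 4 of 7 and 1 of 6 neurons, Eif3h in 2, 3 and 1, and Eif3g in 1, 1 and 0. Eif3d reached 12.33 in RFP-positive EtOH neuron 3, the highest single value of the gene, while its next highest value was 3.89. Exons of Eif3d overlap a gene on the opposite strand by 2151 of their 4968 bases. The library kits keep no strand, so reads of the overlapping gene may be included. A count of 0 of 6 PBS neurons, as for Eif3g, allows a share of up to 50% by the limit of 3 neurons (exact interval up to 45.9%).

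Eef1a1, which delivers aminoacyl-tRNA to the ribosome, was among the most widely detected members. It had 3.46, 7.21 and 10.93 in RFP-positive EtOH neurons, 5.60, 7.17 and 10.66 in RFP-negative EtOH neurons and 2.96, 6.61 and 9.91 in PBS neurons (lowest, median and highest), with upper values in 13 of 15, 7 of 7 and 5 of 6. The groups had similar ranges, and the differences were -0.96, 1.63 and 0.67 in the order of the comparisons above. Eef1g, a subunit of the exchange factor that recharges eEF1A, was at an upper value in 4 of 15, 2 of 7 and 2 of 6 neurons, with means of 3.48 ± 2.88, 3.22 ± 1.53 and 4.49 ± 3.46. Its values were 1.08, 2.31 and 10.19, then 1.40, 3.04 and 6.06, then 1.59, 3.36 and 10.70 in the 3 groups (lowest, median and highest), so that each group held both low and upper values.

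Among the further factors, Eif4g2, a relative of eIF4G that acts in cap-independent initiation, was at an upper value in 7 of 15, 5 of 7 and 4 of 6 neurons, with means of 5.85 ± 3.78, 7.27 ± 3.54 and 6.90 ± 3.96. Its values were 2.04, 3.42 and 11.21 in RFP-positive EtOH, 1.82, 9.17 and 10.30 in RFP-negative EtOH and 2.21, 7.30 and 10.69 in PBS neurons, and the RFP-positive mean was lower than the RFP-negative EtOH mean by 1.42 units (a difference of -1.42). Eif6, which keeps the large subunit from joining too early, had 1.28, 2.45 and 9.62 in RFP-positive EtOH neurons, 1.89, 5.12 and 7.76 in RFP-negative EtOH neurons and 1.86, 2.19 and 3.39 in PBS neurons. Its upper values were in 3 of 15, 4 of 7 and 0 of 6 neurons, and the difference between RFP-negative EtOH and PBS means was 2.17, or 1.65 to 1.83 without RFP-negative EtOH neuron 3, 5 or 6. Eif1ad, named for its likeness to eIF1A, had 1.37, 2.47 and 9.71 in RFP-positive EtOH neurons and 1.77, 2.13 and 5.79 in RFP-negative EtOH neurons (lowest, median and highest), against 10.95 and 9.27 in PBS neurons 1 and 5 and 1.96 to 2.68 in the other 4. Its difference of -2.12 between RFP-negative EtOH and PBS means was -0.92 and -1.26 without PBS neurons 1 and 5, -1.98 to -1.94 without RFP-negative EtOH neuron 3, 5 or 7, -0.52 with group medians and -1.57 with upper quartile scaling. The exons of Eif6 and Eif1ad overlap a gene on the opposite strand by 138 and 428 bases, and the library kits keep no strand. Eif2d averaged 2.88, 2.79 and 1.96 and was at an upper value in 3 of 15, 1 of 7 and 0 of 6 neurons.

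As lists, ribosomal proteins and factors had median differences well under 1 unit in each comparison. In RFP-positive EtOH minus RFP-negative EtOH, 14 of 20 ribosomal proteins and 7 of 15 factors had the higher mean, 21 of 35 members in all (60% of all genes), with median differences of 0.38 and -0.05 against 0.31 for all genes. In RFP-negative EtOH minus PBS, 9 of 20 and 10 of 15 had the higher mean (48.5% of all genes), with medians of -0.28 and 0.37 against -0.06. In the set of 24 the 2 medians had the opposite signs, 0.30 and -0.07. In RFP-positive EtOH minus PBS, 14 of 20 and 11 of 15 had the higher mean (56.5% of all genes), with medians of 0.55 and 0.44 against 0.26. At 1 unit, 8 members were higher and 3 lower in the first comparison (26.3% and 15.7% of all genes), 8 and 8 in the second (23.8% and 26.8%) and 5 and 7 in the third (24.9% and 19.2%).

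Single neurons differed more than the groups. RFP-positive EtOH neurons had 5 to 22 members at an upper value (median 12), RFP-negative EtOH neurons 8 to 17 (median 12) and PBS neurons 10 to 17 (median 12). For ribosomal proteins alone the ranges were 1 to 15, 4 to 9 and 3 to 10, and for factors 3 to 9, 4 to 9 and 5 to 7. The widest range was in the RFP-positive EtOH group, which also has the most neurons: neuron 1 had 15 of 20 ribosomal proteins at an upper value and neuron 7 had 1. The median ribosomal protein value of a neuron was 3.45 ± 1.19, 2.90 ± 0.23 and 3.36 ± 1.10 on average over the groups (SD). RFP-positive EtOH neuron 12 had the highest value of 9 of the 35 members (25.7%, against 6.25% of all genes), and neuron 11 that of 6 (17.1%, against 3.61%). Across the 28 neurons, the share of members and the share of other genes at an upper value had a Pearson r of 0.07 and a Spearman rho of 0.08, given as a description, and -0.01 and -0.03 without the 2 neurons farthest from the median share of other genes.

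**Figure D4:**
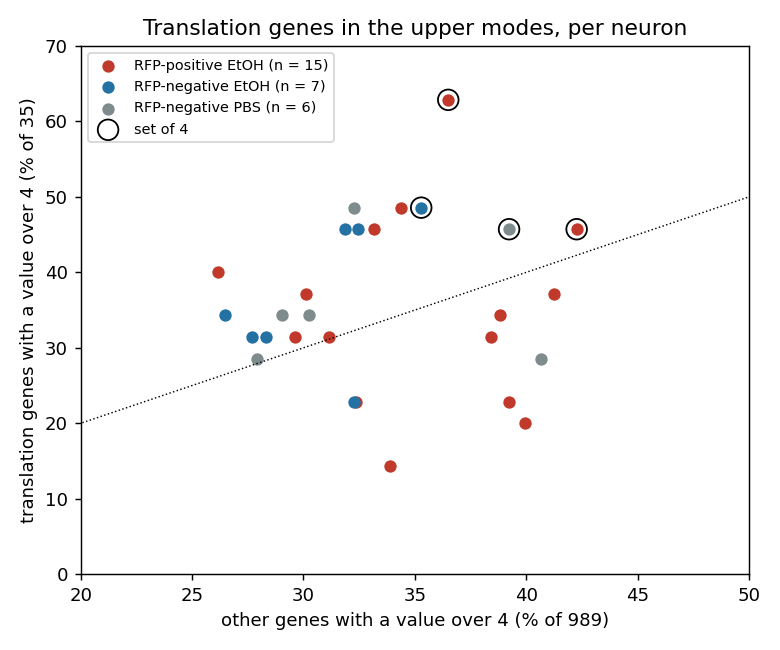
Share of members at an upper value (per cent, vertical axis) against that of all other genes (per cent, horizontal axis) in each of the 28 neurons, coloured by group, with the set of 4 circled and equal shares on the dotted line. The points scatter widely (r = 0.07), and RFP-positive EtOH neurons hold both the highest and the lowest share of members.

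The members did not vary together from neuron to neuron to a large degree. Over the 190 pairs of ribosomal proteins the median Pearson r across the 28 neurons was 0.07 (quartiles -0.07 and 0.24), over the 105 pairs of factors -0.02, and over all 523776 pairs of table genes -0.01. These correlations share libraries and unknown depth and are descriptions. Pairs with r over 0.5 made up 4.21% of ribosomal pairs (8 pairs) and 1.37% of all pairs. The highest pairs joined Rpl13, Rps18, Rps28 and Eif2d, with r of 0.87 for Rps28 and Eif2d and 0.76 for Rpl13 and Rps18. Of the neurons, RFP-positive EtOH 12 had 9.85, 9.96, 10.01 and 9.77 for Rps28, Eif2d, Rpl13 and Rps18, and without it the 2 values of r were 0.80 and 0.66. RFP-negative EtOH neuron 6 was also high for these genes, with 6.82, 8.97, 7.68 and 5.80. The 6 pairs among eIF3 subunits had a median r of -0.01, and Eif3a and Eif3g had 0.67 with both at an upper value in 2 neurons.

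Other genes of translation, from a list of ribosome assembly, ribosome-associated, mRNA cap and poly(A), signalling and tRNA synthetase genes, were described in the same way. Of its 18 measured genes, 2 were at least 2 units higher and 1 lower in RFP-positive EtOH minus RFP-negative EtOH (6.25% and 5.08% of all genes). The counts were 3 and 2 in RFP-negative EtOH minus PBS (8.11% and 11.3% of all genes), and 0 and 1 in RFP-positive EtOH minus PBS (4.3% and 5.37%). Ncl (nucleolin, of the nucleolus) averaged 5.82 ± 2.67 in RFP-positive EtOH, 2.52 ± 1.58 in RFP-negative EtOH and 5.24 ± 2.06 in PBS neurons. Ncbp2, of the nuclear cap-binding complex, averaged 2.93 ± 1.98, 1.89 ± 0.22 and 6.64 ± 2.79. Sbds, which works with the release of Eif6 from the large subunit, averaged 2.89 ± 2.18, 5.85 ± 3.72 and 2.54 ± 1.02. Pabpc1, the cytosolic poly(A) binding protein, was at an upper value in 7 of 15, 0 of 7 and 3 of 6 neurons, and its difference between RFP-positive and RFP-negative EtOH means was 2.48. The others past 2 units were Abcf1 and Ybx1, at 2.13 and 2.05 in RFP-negative EtOH minus PBS, and at 2.23 and 1.43 within the set of 24. The median differences over the 18 genes were 0.12, 0.56 and 0.37, against 0.31, -0.06 and 0.26 over all genes.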

How the data were processed

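Contents of single neurons were made into libraries with SMARTer and Nextera XT kits and sequenced as single reads of 51 cycles, per the labels' protocols. Demultiplexing used CASAVA 1.8 per the labels' protocols, while Bowtie2, Cufflinks 2.2.1 and the build GRCm38 are named, without settings, in the submitters' processing notes. The deposited values are taken as log2 expression, since all lie between 1.00 and 13.2. The base, the pseudocount and the table's cut-off are not given in the sources used here, and depth is unknown, so precision is stated only as the spread over neurons.

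Neurons were grouped by titles and exposure labels into 15, 7 and 6. The series' design text counts 5 PBS neurons, and all 6 were used. Labels name no animal, so differences of group means were computed over the whole table with no test. The members and lists were chosen with earlier results of these data known. Genes were named in full by this rule: members past 2 units, and the 2 highest means in each of the 5 roles, with the others by counts and ranges. Of the members, 2 are not reported here by name, and they are included in the counts and medians. Identifiers were matched to GENCODE M21 (1020 of 1024 genes, all 35 members). Exons of 20 members overlap another gene, and for 11 members that gene is on the opposite strand. The 2 sets of neurons were divided at 5 exactly equal values. Intervals are exact Clopper-Pearson (95%), and a count of 0 was given a limit of 3 neurons. Alternatives were group medians, arithmetic means, upper quartile scaling, median centring, the set of 24, members without exon overlap, a size of 1 unit and each neuron left out. Scripts used Python 3.11.15, NumPy 2.4.6, pandas 2.3.3, SciPy 1.17.1 and matplotlib 3.10.9. Of their steps, only the difference of group means was run on simulated data with planted differences.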

Additional observations from a re-analysis of the deposited data

Results flagged for a closer look

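For the 7 neurons of the RFP-negative EtOH group and the 6 of the PBS group, the gap of the most distant neuron to its nearest neighbour was divided by the range of the group and compared with Dixon's 95% critical value, 0.568 for 7 and 0.625 for 6 values. All 35 members were looked at in both groups, with 3 summary measures (the count of members at upper values and the medians of ribosomal and factor genes), 76 cases in all. The 15 RFP-positive EtOH neurons are too many for this measure and were not looked at. The gap passed the critical value in 13 of the 70 cases of members, or 18.6%, and in none of the 6 of the summary measures. Chance marks about 1 in 20 cases where values follow a normal distribution. These values mostly lie in a low or an upper range, and over all genes the gap passed in 621 of 2048 cases, or 30.3%.

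In RFP-negative EtOH neurons, Rps4x was at 6.85 in neuron 3, against 1.10 to 1.75 in the other 6. Eif2s1 was at 6.41 in neuron 6, against 1.61 to 2.59, and Eif2d at 8.97 in the same neuron, against 1.36 to 2.08. Eif3g was at 9.39 in neuron 4, against 1.77 to 2.84. The gaps were 0.795 to 0.905 of the range.

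Of the RFP-negative PBS neurons, number 6 stood apart from the other 5 in Rpl32 (9.15, against 1.99 to 2.98), Rpl34 (6.53, against at most 2.62), Eif3h (6.25, against 1.67 to 2.46) and Rps4x (6.05, against 1.15 to 2.95). Number 5 stood apart in Rpl6 (6.56, against 1.72 to 2.74) and Rps18 (6.72, against 1.30 to 3.16). Eif3a was at 6.90 in neuron 2, against 1.99 to 3.09, Eif2s3x at 7.32 in neuron 3, against 1.45 to 2.51, and Rps19 at 5.03 in neuron 4, against 1.05 to 2.23. The gaps were 0.633 to 0.861 of the range. Each of the 13 was the highest neuron of its group. Without RFP-negative EtOH neuron 6 and PBS neuron 4, each left out alone, the differences of Eif2s1 and Rps19 from PBS stayed past 2 units.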

How the results depend on the processing

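No paired analysis was possible because no test was run and the labels tie no neurons together. Of the differences of at least 2 units, those of Eif2s1 and Rps19 from PBS kept that size in every setting and with each neuron left out, while those of Rpl4, Rpl14, Eif1ad and Eif6 did not. No sign of a named difference of 2 units turned. Counts of members past 2 units are given with the share of all genes past that size in the same setting, with exceptions. The counts without overlapping exons leave out 20 of the 35 members and carry no share. Counts with 1 neuron left out carry no share either, so neither kind can be set against all genes. For RFP-positive EtOH minus RFP-negative EtOH, the higher members numbered 12 with arithmetic means (37.8% of all genes), 0 with upper quartile scaling (2.73%), 0 with median centring (4.59%), 1 in the set of 24 (7.13%) and 1 without overlapping exons, and the lower ones 6 with group medians (9.67%). At a size of 1 they numbered 8 higher (26.3%) and 3 lower (15.7%). For RFP-negative EtOH minus PBS, the higher ones numbered 6 with group medians (9.47%), 7 with arithmetic means (19.9%), 4 with upper quartile scaling (13.3%), 1 without overlapping exons and 8 at a size of 1 (23.8%). The lower ones numbered 8 with group medians (12.1%), 6 with arithmetic means (27%), 1 with upper quartile scaling (5.86%), 2 without overlapping exons and 8 at a size of 1 (26.8%). For RFP-positive EtOH minus PBS, the higher ones numbered 2 with group medians (5.57%), 13 with arithmetic means (34.3%), 3 in the set of 24 (7.13%) and 5 at a size of 1 (24.9%). The lower ones numbered 5 with group medians (10.3%), 2 with arithmetic means (14.1%), 4 in the set of 24 (7.91%) and 7 at a size of 1 (19.2%). With arithmetic means, the ribosomal median was 1.89 for RFP-positive EtOH minus RFP-negative EtOH, where the median of all genes was 1.06, and 1.86 for RFP-positive EtOH minus PBS, where that of all genes was 0.75. For RFP-negative EtOH minus PBS it was 0.27 with upper quartile scaling, 0.30 in the set of 24 and -0.66 without overlapping exons. The cause was not tested. Under upper quartile scaling the median of all genes was -0.20 in place of 0.31 for RFP-positive EtOH minus RFP-negative EtOH, where the ribosomal median was -0.13, and 0.49 in place of -0.06 for RFP-negative EtOH minus PBS. Leaving out 1 neuron gave ribosomal medians of 0.13 to 0.61, -0.37 to 0.35 and 0.19 to 0.74 in the 3 comparisons, factor medians of -0.30 to 0.22, -0.05 to 0.87 and 0.22 to 0.52, counts of higher members of 0 to 3, 1 to 3 and 1 to 3, and of lower members of 0 to 1, 2 to 5 and 1 to 2. Depth is unknown, so the values do not show whether a low value is a missed transcript.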

Other observations

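The genes of the table whose values were most like those of Eif2s1 across the 28 neurons, by Pearson r, were Tmem178b (0.68), Cdk19 (0.65), Magee1 (0.64), Tshz1 (0.61) and Tmem237 (0.60). For Rps19 they were Tollip (0.61), Hectd3 (0.60), Sypl (0.56), Sart1 (0.56) and Kcnn2 (0.54), where Kcnn2 encodes the potassium channel SK2. Group means were not subtracted, so r includes differences between the groups. The genes named for Eif2s1 had RFP-negative EtOH minus PBS differences of -4.87 (Tmem178b) to -1.76 (Tshz1), in the direction of Eif2s1. Those named for Rps19 had -0.21 (Tollip) to 1.17 (Sypl). The values of r share neurons and libraries and are descriptions.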
